A study of Mus musculus with 4 samples.

Results

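Genes that define the white adipocyte and its secreted hormones were followed across tumours of both genotypes and both treatments. The list held 10 genes (Adipoq, Lep, Retn, Cfd, Fabp4, Plin1, Cidec, Pparg, Lipe and Pck1), chosen by name and read from every probe set that the platform annotation ties to a single gene symbol. Of these, 8 had such a probe set, 12 probe sets in all, out of 12393 genes and 22690 probe sets. Cfd, the gene of the secreted serine protease adipsin, and Plin1, the gene of the lipid droplet coat protein perilipin, had none under their names and were not analysed here.

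The tissue was mammary tumour from nulliparous female FVB mice. All groups received the progestin MP (Depo-Provera, 15 mg, injected under the skin) and then 4 weekly gavage doses of 1 mg DMBA, a carcinogen, so the placebo mice had these as well. Wild-type (WT) mice were compared with age-matched MMTV-PAX8PPARg littermates, whose transgene fuses PAX8 to the nuclear receptor PPARg and is driven by a viral promoter active mainly in mammary epithelium. Each genotype received 60-day release pellets that held placebo or 2.5 mg RU486 (mifepristone, which blocks the progesterone and glucocorticoid receptors), with a repeat after 60 days. The ages of the mice were not given in the sources used here. Each of the 4 groups was 1 Affymetrix array hybridised with RNA pooled from 5 mice. No comparison therefore has a test or an error between mice, and the number of arrays limits every value. Each difference is one of log2(signal + 16) after the arrays were centred on their medians, and 1 on this scale is about 2-fold for bright genes and more for dim ones.

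White adipocytes fill the mammary fat pad around the ducts. Pparg, in its adipocyte form, switches on the genes of fat storage together with C/EBPalpha. Mature cells then carry droplets of triglyceride, take up and bind fatty acids, release them by lipolysis, and secrete adipokines such as adiponectin, leptin and resistin. Glucocorticoids promote the formation of adipocytes in culture.

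Promoter windows are shown first for the 3 adipokine genes, Cidec, Pck1 and Pparg, the 6 genes with the most similar pattern over the arrays. Both windows of Cidec are given, and of the 3 windows of Pparg the one that holds the C/EBP letters. Each window runs from 250 bases before to 50 bases after an annotated start and comes from RefSeq, build GRCm38.p6. Capitals mark matches to TTGCNNAA, a form of the C/EBP motif, searched on both strands.
Adipoq, chr16:23146286-23146585, plus strand: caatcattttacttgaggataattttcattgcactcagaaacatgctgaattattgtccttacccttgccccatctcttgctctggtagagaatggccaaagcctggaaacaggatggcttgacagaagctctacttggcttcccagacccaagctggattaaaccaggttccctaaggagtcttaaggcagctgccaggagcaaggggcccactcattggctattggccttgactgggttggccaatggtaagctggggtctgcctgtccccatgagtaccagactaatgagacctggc
Lep, chr6:29059971-29060270, plus strand: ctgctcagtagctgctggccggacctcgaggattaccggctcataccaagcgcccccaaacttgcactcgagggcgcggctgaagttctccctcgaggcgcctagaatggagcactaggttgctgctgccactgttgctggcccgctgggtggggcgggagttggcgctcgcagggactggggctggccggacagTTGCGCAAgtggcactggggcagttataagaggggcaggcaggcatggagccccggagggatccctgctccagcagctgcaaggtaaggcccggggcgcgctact
Retn, chr8:3655520-3655819, plus strand: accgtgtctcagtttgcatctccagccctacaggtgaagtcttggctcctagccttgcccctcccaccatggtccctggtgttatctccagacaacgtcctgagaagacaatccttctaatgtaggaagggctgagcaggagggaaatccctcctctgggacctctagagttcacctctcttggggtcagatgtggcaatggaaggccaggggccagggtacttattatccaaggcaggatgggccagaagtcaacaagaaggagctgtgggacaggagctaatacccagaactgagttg
Cidec, chr6:113435711-113436010, minus strand: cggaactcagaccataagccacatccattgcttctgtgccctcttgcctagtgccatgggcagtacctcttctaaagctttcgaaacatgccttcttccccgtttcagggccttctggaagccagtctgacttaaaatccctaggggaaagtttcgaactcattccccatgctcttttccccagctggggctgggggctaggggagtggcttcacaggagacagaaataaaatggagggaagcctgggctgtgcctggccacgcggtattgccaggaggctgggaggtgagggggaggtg
Cidec, chr6:113434715-113435014, minus strand: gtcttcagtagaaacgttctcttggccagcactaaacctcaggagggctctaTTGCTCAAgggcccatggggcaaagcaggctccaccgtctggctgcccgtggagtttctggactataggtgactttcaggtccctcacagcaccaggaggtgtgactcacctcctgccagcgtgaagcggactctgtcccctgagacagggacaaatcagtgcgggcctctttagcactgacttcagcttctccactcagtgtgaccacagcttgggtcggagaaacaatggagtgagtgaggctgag
Pck1, chr2:173152823-173153122, plus strand: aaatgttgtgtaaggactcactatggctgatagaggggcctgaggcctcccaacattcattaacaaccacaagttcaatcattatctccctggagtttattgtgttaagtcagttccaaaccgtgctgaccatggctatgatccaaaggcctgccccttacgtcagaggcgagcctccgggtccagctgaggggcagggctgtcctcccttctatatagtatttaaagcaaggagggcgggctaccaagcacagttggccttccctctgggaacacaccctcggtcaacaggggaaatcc
Pparg, chr6:115421816-115422115, plus strand: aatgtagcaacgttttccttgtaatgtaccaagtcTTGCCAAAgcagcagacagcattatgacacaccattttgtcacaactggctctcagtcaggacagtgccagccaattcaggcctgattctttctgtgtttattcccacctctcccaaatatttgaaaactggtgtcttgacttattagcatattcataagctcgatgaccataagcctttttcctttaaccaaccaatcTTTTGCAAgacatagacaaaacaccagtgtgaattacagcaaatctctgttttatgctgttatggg

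The C/EBP letters began 55 bases before the start of Lep and 198 bases before the start in the second Cidec window. The Pparg window held them 215 and 16 bases before the start, and the windows of Adipoq, Retn and Pck1 and the first of Cidec had none. Over all listed genes, 9 had a window, with 13 windows in total, and 4 windows of 4 genes matched (Lep, Cidec, Pparg and Plin1). The same letters occurred in 10.8% of 32851 promoter windows. The half-site AGGTCA of nuclear receptors, on either strand, lay in 2 windows, both at other starts of Pparg, against 16.3% of all windows. Its direct repeat AGGTCANAGGTCA, the element that PPARg binds with RXR, lay in 0 of the 13 and in 0.0396% of all windows. The plus-strand letters TATAAA were likewise in 0 of the 13, against 8.32% overall. The genes thus shared no searched motif across their windows, which says only that these letters are not within them.

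Trimmed mean signals were equal between arrays (500.1 to 500.2), but the dim end differed. Probe sets for bacterial genes, with no target in mouse RNA, reached 9.6 in WT under placebo, 18.5 in WT under RU486, 8.3 in PAX8PPARg under placebo and 35.3 in PAX8PPARg under RU486, and a signal at or below that level is called within background. Relative to WT placebo, the brightness of spike-in controls was 1.58 times in WT under RU486, 1.01 times in PAX8PPARg under placebo and 2.44 times in PAX8PPARg under RU486. Luminal epithelial markers, which define the tissue, summed to 40968, 6458, 36257 and 40497 in that order of arrays, so the WT RU486 pool was low in them.

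The adipocyte genes were highest in a single pool, that of PAX8PPARg mice on placebo. That array had the highest value for 8 of 8 measured genes, while it was the highest for 16% of all 12393 genes and for 14.2% of the 6197 at or above the median level. Of the 8, 6 lie below that level. The PAX8PPARg RU486 array had the lowest value for 7 of the 8 and the WT RU486 array for the other gene, Retn. Of the 7, Lep, Pparg and Pck1 were within background there, on the array with the highest background. The share of all genes lowest on that array was not counted, so the 7 have nothing to be set against. In a bulk tumour, fewer adipocytes and less RNA per adipocyte cannot be told apart.

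**Figure D1:**
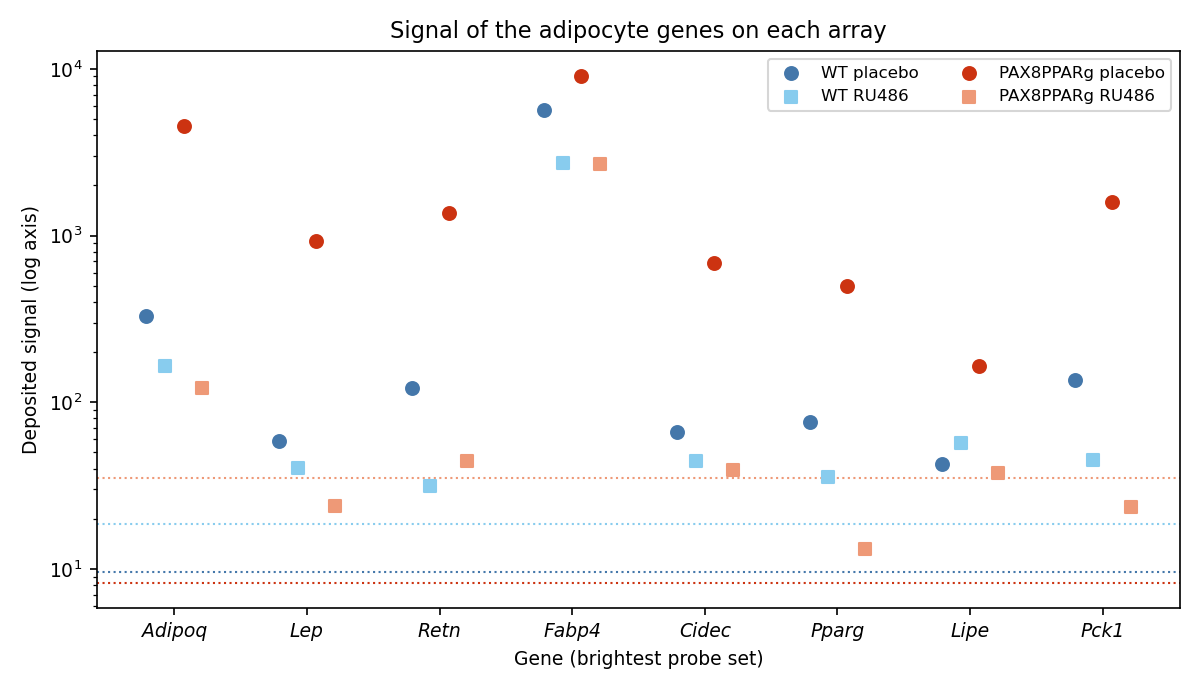
Deposited signal (log axis) of the brightest probe set of each of the 8 genes on each of the 4 arrays, 1 point per array. Dotted lines in the colour of each array mark its highest bacterial control signal. The PAX8PPARg placebo point is the highest for every gene, and Lep, Pparg and Pck1 lie under the line on the PAX8PPARg RU486 array.

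The 3 measured adipokine genes each peaked in the PAX8PPARg placebo pool, by more than 10 times over the next array. Adipoq (chr16:23146536-23157968), the gene of adiponectin, a hormone that raises insulin sensitivity, had signals of 328.8 in WT under placebo, 164.9 in WT under RU486, 4509.4 in PAX8PPARg under placebo and 122.6 in PAX8PPARg under RU486. The PAX8PPARg placebo signal was 13.7 times the next highest, and the other arrays lay within a much narrower band. Lep (chr6:29060221-29073876), which encodes leptin, the satiety hormone released in proportion to fat mass, read 58.7, 40.3, 922.9 and 23.8 in the same order. The last of these was within background, so by the deposited signals the PAX8PPARg placebo pool was at least 26.1-fold higher than under RU486. Retn (chr8:3655770-3659818), the gene of resistin, an adipocyte hormone in mice, read 121.9, 31.6, 1370.9 and 44.2. Both RU486 pools were low for Retn, and the WT RU486 signal was the lowest of the 4.

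Genes of lipid binding and of the droplet split. Cidec (chr6:113424634-113435760), whose protein fuses droplets into the large single droplet of white fat, read 66.8 in WT under placebo, 44.4 in WT under RU486, 683.7 in PAX8PPARg under placebo and 39.1 in PAX8PPARg under RU486, the pattern of the adipokines. Fabp4 (chr3:10204342-10208616), the fatty acid carrier of adipocytes, which macrophages and capillary endothelium also make, read 5680, 2729.6, 9046.6 and 2672.6 with its brightest probe set. Its signal in PAX8PPARg under placebo was 1.59 times that of WT under placebo, against 11.2 to 15.7 times for the adipokines.

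The 4 probe sets of Fabp4 ordered the placebo arrays alike but differed in the size of the gap. The second brightest read 2747.7, 1007.3, 8774.6 and 1063.8. The dimmer pair read 44.5, 17.0, 101.8 and 16.7, and 64.1, 16, 387.4 and 4.0, with both RU486 arrays within background for each of them. PAX8PPARg minus WT under placebo was 0.48 for the brightest and 1.48, 0.77 and 2.14 for the others.

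Pparg itself (chr6:115360879-115490404), the nuclear receptor that directs adipocyte differentiation, read 75.9 in WT under placebo, 35.4 in WT under RU486, 497.5 in PAX8PPARg under placebo and 13.2 in PAX8PPARg under RU486, the last within background. The sources used here do not say whether this probe set detects the fusion.

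Among the enzymes of fat release and of glycerol supply, Pck1 had the wider and Lipe the narrower span. Pck1 (chr2:173153073-173159274), the phosphoenolpyruvate carboxykinase that makes the glycerol backbone of triglyceride in fat, read 135.3, 45.3, 1579.4 and 23.4, the last within background. Its second probe set was within background on all 4 arrays, at 0.2, 0.3, 0.0 and 10.9, and carries no order. Lipe (chr7:25379527-25398486), the hormone-sensitive lipase, read 42.9 in WT under placebo, 56.6 in WT under RU486, 165.6 in PAX8PPARg under placebo and 37.8 in PAX8PPARg under RU486. It was the only measured gene whose WT placebo signal was below its WT RU486 signal.

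The first comparison concerned genotype under placebo. The median difference of the 8 genes, PAX8PPARg minus WT, was 3.01 log2, with a range from 0.48 for Fabp4 to 3.52 for Adipoq. Of the 8, 7 were at least 2-fold higher and 0 lower. The share at least 2-fold higher was 4.28% of all 12393 genes and 1.89% of the 6197 at or above the median level, among which were 2 members (Adipoq and Fabp4). The median differences of these sets were -0.15 and -0.19. Lep (3.46), Pck1 (3.21), Retn (3.14) and Cidec (2.89) were close to Adipoq, while Pparg (2.29) and Lipe (1.43) differed less. Among the 6197 genes, Adipoq had the 4th largest positive difference.

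The second comparison concerned RU486 in PAX8PPARg mice, and it shares the placebo array with the first. All 8 measured genes were at least 2-fold lower under RU486, with a median of -4.20 log2 and a range from -5.21 for Pck1 to -1.62 for Fabp4 and Lipe. Pck1 was within background under RU486, and with signals raised to the bacterial control level it was -4.83, Adipoq -4.90 and the median -3.80. Such a difference was found for 7.02% of all genes and 5.1% of those at or above the median level, with medians of 0.13 and 0.05. By the deposited signals, without centring, the placebo pool was 36.8-fold higher for Adipoq, 31-fold for Retn, 17.5-fold for Cidec, 4.38-fold for Lipe and 3.38-fold for Fabp4. It was at least 44.7-fold higher for Pck1 and at least 14.1-fold higher for Pparg, both within background under RU486. Retn, Cidec and Lipe, at 44.2, 39.1 and 37.8 under RU486, were just above the background level of 35.3, so their folds are not exact.

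The third comparison, RU486 in WT mice, had a median of -0.88 log2 over the 8 genes, and 3 were at least 2-fold lower, Retn (-1.53), Pck1 (-1.30) and Fabp4 (-1.05). The share so far down was 8.85% of all genes and 8.25% of those at or above the median level, with medians of 0.01 and -0.06. The count over the 8 was 7 with spike-in scaling, where the median was -1.55, and 1 with a pseudocount of 64. Under these settings the share of genes at or above the median level was 30.0% and 7.37%. Adipoq (-0.93), Pparg (-0.84), Cidec (-0.45) and Lep (-0.41) were lower by less than 1 on this scale. By the deposited signals, Pparg was 2.14-fold lower and Adipoq 1.99-fold. Lipe differed by 0.30, which became -0.36 when the arrays were scaled to the spike-in controls. The WT RU486 pool was also low in luminal epithelial markers and high in macrophage markers (summed signal 64992 against 18597 to 20749 on the other arrays), whose part in these differences was not tested.

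The fourth comparison concerned genotype under RU486. PAX8PPARg minus WT had a median of -0.47 log2 over the 8 genes, a range from -0.87 for Pparg to 0.28 for Retn, and 0 genes at least 2-fold apart in either direction. With spike-in scaling 5 of the 8 were at least 2-fold lower, the median was -1.03 and Retn became -0.28. That scaling put 26.8% of genes at or above the median level at least 2-fold lower. Without it, 10.1% of all genes were at least 2-fold lower and 10.8% higher, and of those at or above the median level 10.2% and 7.23%. The medians of all genes and of those at or above the median level were 0.01 and -0.05. For Pparg, Lep and Pck1 one side of this comparison was within background.

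The RU486 difference in PAX8PPARg minus that in WT was negative for 8 of 8 genes (median -3.12 log2), and for 5199 of all 12393 genes. It was at least 2-fold for 7, the exception being Fabp4 with its brightest probe set (-0.57). Its second brightest gave -1.46, and Fabp4 was at -1.44 with probe sets averaged and at -1.31 with spike-in scaling, where the count was 8 of 8. The difference was -4.02 for Lep, -3.97 for Adipoq and -3.90 for Pck1, and -3.65, -3.97 and -3.52 with signals raised to the bacterial control level. Of all genes 12.1%, and of those at or above the median level 10%, were at or past -1. With spike-in scaling the latter share was 28.8%. This value uses all 4 arrays, and with no replicate it has no test.

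**Figure D2:**
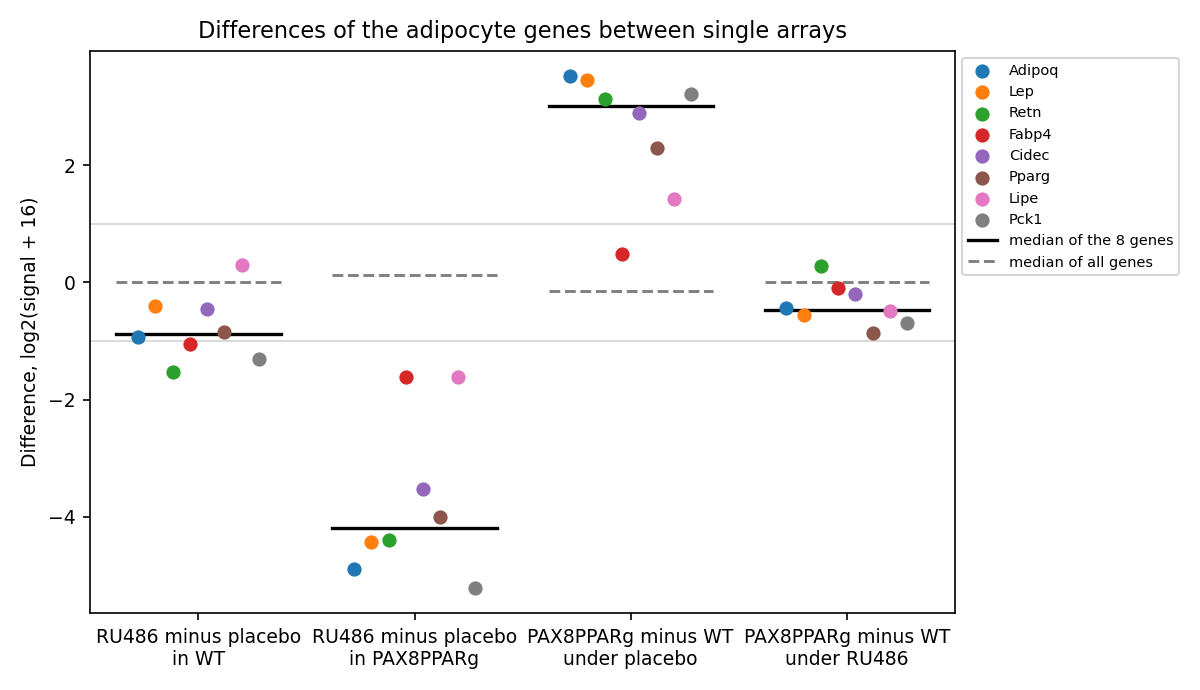
Difference between pairs of single arrays, in log2(signal + 16), for each of the 8 genes in 4 comparisons. Black bars are the median of the 8 genes, dashed grey bars the median of all genes, and grey lines mark 2-fold. The medians of the 8 genes are -0.88, -4.20, 3.01 and -0.47 from left to right, and Fabp4 and Lipe lie nearest to 0 in the middle columns.

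Relative to each gene's own mean over the arrays, 6 of the genes traced nearly the same profile. The median profile of the 8 was -0.20 in WT under placebo, -0.92 in WT under RU486, 2.69 in PAX8PPARg under placebo and -1.41 in PAX8PPARg under RU486. Lep lay closest to it, at a mean absolute distance of 0.165 log2 over the 4 arrays, followed by Cidec (0.209), Pparg (0.243), Adipoq (0.305), Retn (0.312) and Pck1 (0.421). Fabp4 (0.85) and Lipe (0.876) lay apart, with peaks of 0.91 and 1.05 on the PAX8PPARg placebo array.

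Among other genes at or above the median level, the 10 nearest to the median profile were Fgg, Cited1, Cd36, Fcgbp, Dpep1, Car3, Nnat, Dgat2, Ccl5 and Stc2, at distances of 0.16 to 0.483 log2 over 4 arrays. Cd36, the fatty acid transporter of fat cells, read 661.1, 271.7, 3465.3 and 221.1, and Dgat2, which completes triglyceride, read 159.2, 75.6, 1907.4 and 135.6. Car3, a carbonic anhydrase abundant in fat and muscle, read 2361.6, 1497.5, 9346.4 and 821.6. Others on the list are not known as adipocyte genes, such as Fgg, a fibrinogen chain (202.2, 123.1, 1383.4 and 94.0), Cited1, a transcriptional coactivator (239.3, 100.2, 1901.1 and 105.0), and Ccl5, a chemokine of T cells (201.0, 233.5, 1525.1 and 142.1). The nearest to Fabp4 were Scd1, a fatty acid desaturase (0.057), the metal ion transporter gene Slc39a8 (0.071) and Pecam1, a marker of endothelium (0.106).

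**Figure D3:**
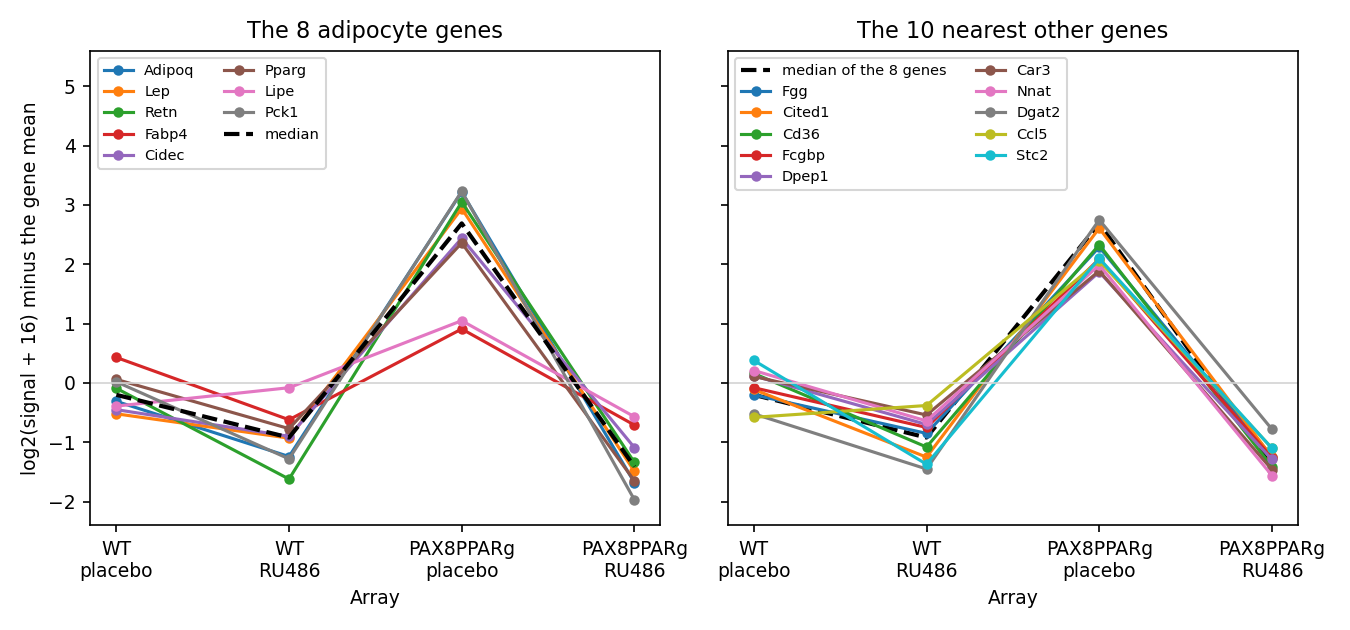
Log2(signal + 16) minus the gene's mean over the 4 arrays, 1 point per array and 1 line per gene, for the 8 adipocyte genes (left) and the 10 other genes nearest to their median profile (right), with that median dashed. Lines only join the points of a gene. The median peaks at 2.69 on the PAX8PPARg placebo array, where Fabp4 and Lipe reach 0.91 and 1.05.

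Related genes were read from lists by function. In lipolysis and droplet handling, 5 of 12 measured genes were at least 2-fold lower and 1 higher in PAX8PPARg under RU486, with a median of -0.73 log2. A difference of 2-fold upward was found for 10.6% of all genes and 5.05% of those at or above the median level. Downward the shares were 7.02% and 5.1%. These shares belong beside the counts of every list below for RU486 in PAX8PPARg. Aqp7, the glycerol channel of adipocytes, read 36.0 in WT under placebo, 9.0 in WT under RU486, 359.9 in PAX8PPARg under placebo and 1.9 in PAX8PPARg under RU486, with both RU486 signals within background. Plin4, a coat protein of adipocyte droplets, read 69.3, 56.5, 715.6 and 29.6, the last within background. Mgll, which frees the last fatty acid of a triglyceride, differed by -2.56. The exception was Hilpda, a hypoxia-inducible inhibitor of lipolysis, at 1.18. Aqp7 and Plin4 therefore had the pattern of the adipokines, while the list as a whole had a median of 0.12 for genotype under placebo.

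Fatty acid and triglyceride synthesis was lower in PAX8PPARg under RU486 for 11 of 14 measured genes at 2-fold, with 0 higher and a median of -1.80. Dgat2 (-3.53), Gpd1, which supplies glycerol phosphate (-2.92), and the elongase gene Elovl6 (-2.56) had the largest differences. In WT, 7 of the 14 were at least 2-fold lower and 1 higher (median -0.97). Of all genes 8.85%, and of those at or above the median level 8.25%, were that much lower in WT, and 7.45% and 5.5% higher. Epithelial cells of the mammary gland also run this pathway.

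Of 5 measured genes of fatty acid uptake, 2 were at least 2-fold lower in PAX8PPARg under RU486 and 1 higher (median -0.75). Cd36 differed by -3.74 and the lipoprotein lipase gene Lpl by -3.03, while Fabp5, a fatty acid carrier of keratinocytes, differed by 1.13, with signals of 4867.7, 2953.1, 4738.8 and 9460.3. The adipocyte carrier Fabp4 and the epidermal carrier Fabp5 thus had their highest signals on different arrays.

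Transcription factors other than Pparg went both ways. Of 13, 4 were at least 2-fold lower and 3 higher in PAX8PPARg under RU486 (median -0.05). Klf15, a factor induced by glucocorticoids and in adipogenesis, read 90.2 on the WT placebo and 139.8 on the PAX8PPARg placebo array but was within background in both RU486 pools, at 1.6 and 11.6. Also lower under RU486 in PAX8PPARg were Ebf1 (-1.5), Cebpa, the gene of C/EBPalpha (-1.44), and Zbtb16 (-1.15). In WT, unlike Klf15, they were higher under RU486, by 0.35 for Ebf1, 0.3 for Cebpa and 1.24 for Zbtb16. Higher under RU486 in PAX8PPARg were Klf5 (2.52), which is also an epithelial factor, the coactivator gene Ppargc1a (1.71) and Cebpb (1.19), an early factor of adipogenesis.

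Receptors of the adipokines and genes of the insulin pathway mostly stayed within 2-fold. Of 8 measured genes, 1 was at least 2-fold lower and 1 higher in PAX8PPARg under RU486 (median -0.59). Slc2a4, the insulin-regulated glucose transporter of fat and muscle, read 58.1, 21.4, 371.8 and 125.0. Cdh13, a cell surface protein that binds adiponectin, differed by 1.03 and the adiponectin receptor gene Adipor1 by 0.94. Among 10 other adipokines the median was 0.03, with 1 at least 2-fold lower, Rbp4, the retinol carrier (-1.93), and 2 higher. These were the peptide hormone gene Apln (1.04) and Serpina12, the gene of vaspin, which was within background on both PAX8PPARg arrays (1.0 and 29.8), so its difference carries no size.

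**Figure D4:**
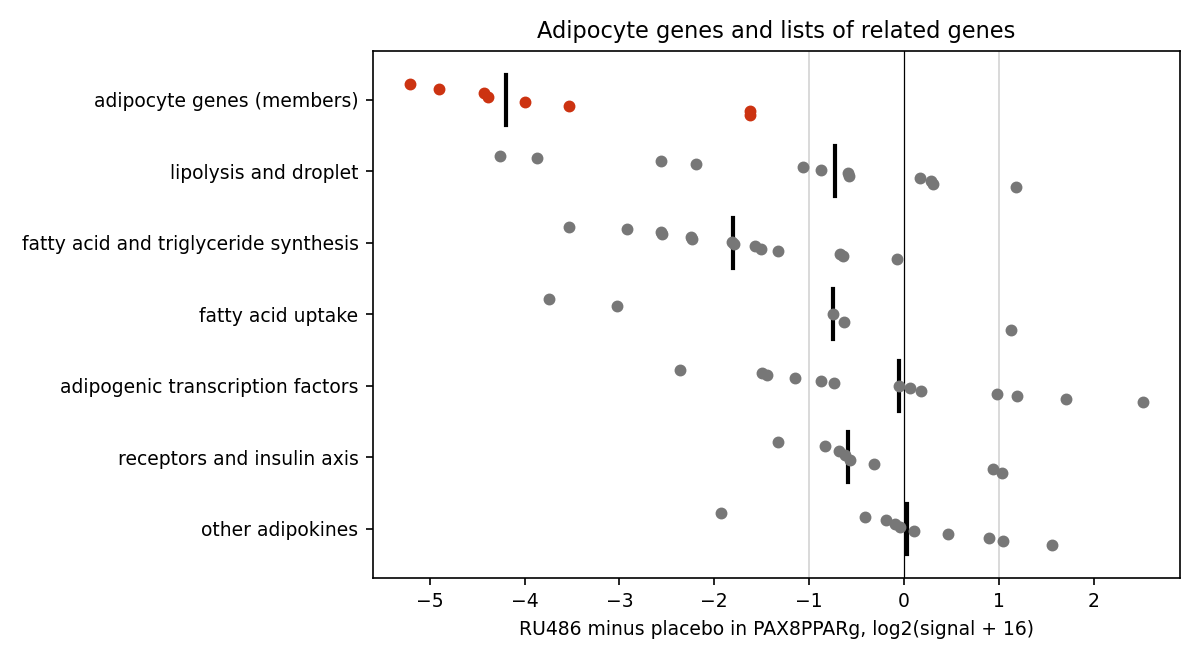
Difference between RU486 and placebo in PAX8PPARg, in log2(signal + 16), for the 8 adipocyte genes (red) and for 6 lists of related genes (grey), 1 point per gene. Black bars are list medians and grey lines mark 2-fold. The 8 genes have a median of -4.20, against -1.80 for fatty acid and triglyceride synthesis and between -0.75 and 0.03 for the other lists.

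Other cell types shared part of this pattern. The PAX8PPARg placebo array was the highest for 16% of all genes and for 14.2% of those at or above the median level. B and plasma cell markers were highest there for 6 of 7 measured genes, T and NK cell markers for 8 of 8 and endothelial markers for 9 of 9. In the order used above, their summed signals were 259, 1568, 4319 and 282 for B and plasma cells. For T and NK cells they were 530, 672, 3797 and 379, and for endothelium 2667, 1755, 4944 and 1910. In PAX8PPARg, RU486 minus placebo had medians of -3.27, -2.85 and -1.26 for these lists, with 7 of 7, 8 of 8 and 6 of 9 at least 2-fold lower. Ighm, the brightest of the B and plasma cell genes, was highest on the WT RU486 array, at 101.3, 1177.4, 826.0 and 72.0. Jchain, of the same list, read 88.5, 254.1, 1371.7 and 115.0 and the endothelial gene Cdh5 428.5, 302.9, 630.3 and 310.7. The part of these cells in the differences of the adipocyte genes was not tested.

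Markers of brown fat followed the adipocyte genes in part. Of 8 measured brown adipocyte genes, 4 were at least 2-fold lower and 1 higher in PAX8PPARg under RU486 (median -0.93). On the PAX8PPARg placebo array 5 were highest, against 16% of all genes and 14.2% of those at or above the median level. For genotype under placebo the median was 0.28 and 2 (Cox8b and Ucp1) were at least 2-fold higher, against 4.28% and 1.89% of genes. Cidea was lower under RU486 in WT (-2.61) and in PAX8PPARg (-2.48), and Cox7a1 read 101.9, 85.3, 125.5 and 108.8. Cidea and Cox7a1 were named after their values were seen. Cox8b, a muscle and brown fat subunit of cytochrome oxidase, read 81.9, 81.0, 532.4 and 48.8, and the uncoupling protein gene Ucp1 read 31.9, 56.5, 162.4 and 30.5, both chosen after their values were seen. The last Ucp1 signal was within background. Dio2, the deiodinase of brown fat and the brightest of the list, read 298.8, 283.5, 425.7 and 71.5. Ppargc1a, the next brightest, was instead highest on the PAX8PPARg RU486 array, at 76.7, 27.7, 158.0 and 503.0. Of the 8 genes, 2, 3, 1 and 4 were within background on the arrays in the usual order. Genes of preadipocytes and their stroma had a median of 0.04 for genotype under placebo and of -0.86 for RU486 in PAX8PPARg, where 3 of 8 were at least 2-fold lower. Fibroblast and collagen genes had medians of -0.68 and 0.11 in these comparisons. Skeletal muscle markers, a sign of neighbouring tissue, were highest on the WT placebo array for 8 of 9 genes. That array was the highest for 23.0% of all genes and for 30.9% of those at or above the median level. The summed signals of the muscle markers were 6148, 4872, 1477 and 1120, and so did not follow the adipocyte genes.

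Squamous markers ran the other way on the PAX8PPARg arrays, and basal markers in part. Squamous and keratinized genes summed to 775 on the PAX8PPARg placebo and to 7117 on the PAX8PPARg RU486 array, and 9 of 9 were at least 2-fold higher under RU486 (median 4.02). Of all genes 10.6%, and of those at or above the median level 5.05%, were that much higher. Basal markers had a median of 1.22, with 5 of 9 higher and 2 lower. Of 13 luminal markers, 1 was at least 2-fold higher and 1 lower (median 0.46), the latter being Krt19 (-1.83), chosen after its value was seen. In WT the sign was shared instead, with luminal markers at a median of -3.19 and the adipocyte genes at -0.88.

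**Figure D5:**
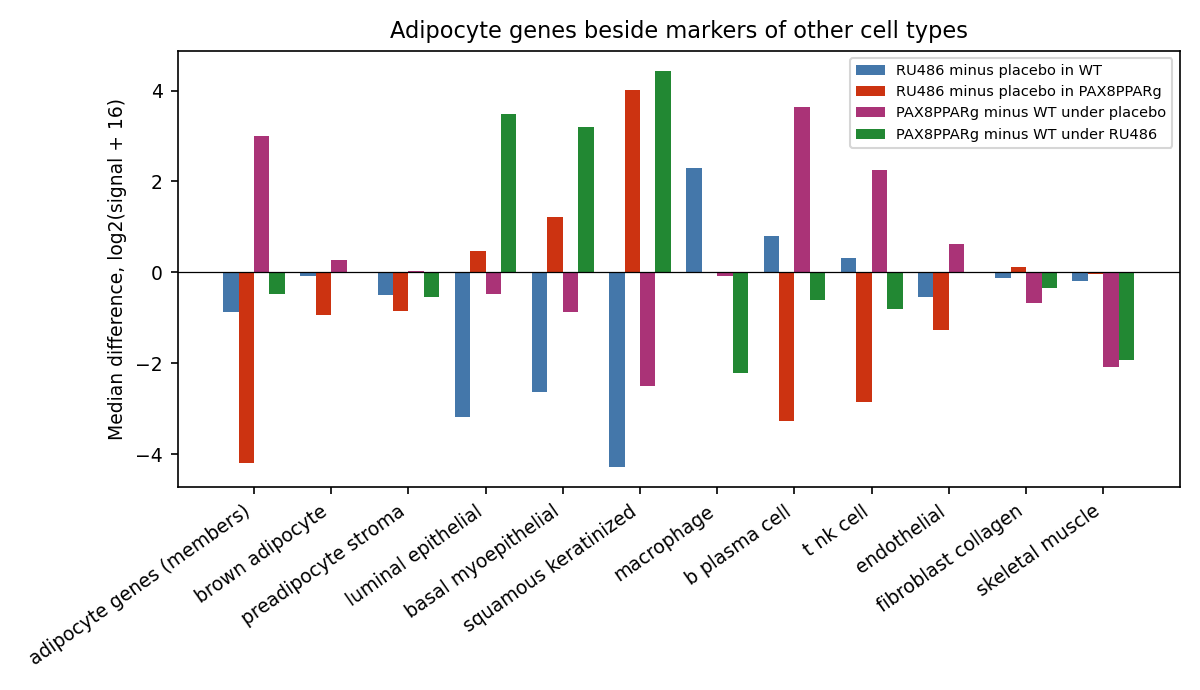
Median difference in log2(signal + 16) of the 8 adipocyte genes and of 11 lists of cell type markers in 4 comparisons of single arrays. The adipocyte genes, B and plasma cell and T and NK cell lists have medians of -4.20, -3.27 and -2.85 for RU486 in PAX8PPARg, and the squamous list has 4.02.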

How the data were processed

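RNA was pooled in equal amounts from 5 mice per group, per the labels' protocols, and each of the 4 groups had 1 array. The values were probe set signals, an intensity on a linear scale, used as the authors deposited them. The sources used here do not name the software behind them, and equal 2% trimmed means show that the arrays had been scaled. Detection calls were not used here.

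Of 22690 probe sets, 64 were controls. Of the others 20380 had 1 gene symbol, 691 several and 1555 none in the platform annotation. The probe set with the highest mean stood for a gene. Signals were taken as log2(signal + 16) and centred on each array's median over the 22626 non-control probe sets. Background was the highest of 27 bacterial control probe sets, and folds of signals use the deposited values, raised to that level where a signal was under it. The steps were tested on simulated data. No test was made with 1 array per group, and differences were counted as 2-fold at 1 or more on the log2(signal + 16) scale.

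The members, the lists and the comparisons were chosen with earlier results of these data known. The text names, per functional list, the 3 genes with the largest difference for RU486 in PAX8PPARg and exceptions to the list's direction at 2-fold, some of the 2 brightest markers per cell type, and the 10 genes nearest in pattern. Aqp7, Klf15 and Slc2a4 are given as signals. Ebf1, Cebpa and Zbtb16 are named outside this rule, to complete the transcription factors that were at least 2-fold lower. A total of 8 alternatives were tried. Python 3.11.15, numpy 2.4.6 and pandas 2.3.3 were used.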

Additional observations from a re-analysis of the deposited data

Results flagged for a closer look

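Lipe, the hormone-sensitive lipase gene, was the only measured adipocyte gene whose RU486 difference had opposite signs in the genotypes, at 0.30 log2 in WT and -1.62 in PAX8PPARg. With 1 array per group this difference was not tested, and the WT value became -0.36 with spike-in scaling.

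Control probe sets for mouse pyruvate carboxylase, an enzyme that adipocytes use for fatty acid and glycerol synthesis, were outside the main measurement and were picked after their values were seen. All 4 were brightest on the PAX8PPARg placebo array. The 3' probe set read 79.8 in WT under placebo, 21.2 in WT under RU486, 418.4 in PAX8PPARg under placebo and 80.0 in PAX8PPARg under RU486. The 5' probe set read 104.5 and the 2 middle probe sets 192.9 and 128.7 on the PAX8PPARg placebo array, against 29.8, 36.3 and 34.8 on the WT placebo array. The probe set of the gene itself, Pcx, read 133.2, 53.8, 541.6 and 94.4.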

How the results depend on the processing

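Of 105 medians and counts over the 8 genes recomputed under another setting, 95 moved by at most 1.5 times. These include counts that were 0 in every setting, such as genes at least 2-fold higher for RU486 in either genotype. Averaging probe sets cannot change a gene with 1 probe set, and raising signals to background changes only those within it. Scaling to the spike-in controls put the median of the genes at or above the level filter at -0.72 log2 for RU486 in WT, -1.36 for RU486 in PAX8PPARg and -0.62 for genotype under RU486, shifts of -0.66, -1.41 and -0.56. The medians of the 8 genes then became -1.55 for RU486 in WT, -5.61 for RU486 in PAX8PPARg and -3.87 for the difference between genotypes. Genes at least 2-fold lower then numbered 7 of 8 for RU486 in WT and 5 of 8 for genotype under RU486. Of the genes at or above the level filter, 30.0% and 26.8% were then that much lower. For RU486 in PAX8PPARg the median was -4.88 with a pseudocount of 1 and -3.07 with 64. With 64, 1 gene was at least 2-fold lower for RU486 in WT. For genotype under RU486, 1 gene was at least 2-fold lower with a pseudocount of 1 and 1 with quantile normalization. The cause of these moves other than by construction was not tested. Of 280 recomputed differences of single genes, 230 moved by less than 1.5 times and 0 of those at 2-fold changed sign. With probe sets averaged, Fabp4 became 1.22 for genotype under placebo and -2.61 for RU486 in PAX8PPARg, and Pck1, whose second probe set was within background, became 1.5 and -2.16. No paired analysis was possible because each group had 1 array. Dim signals limit the folds of Lep, Pparg and Pck1, which are bounds.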
